A study of Mus musculus with 18 samples.

Results

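The collagen genes of mouse embryo fibroblasts were described across 4 trisomies and normal cells. Members were all genes on the array whose symbol has the form Col, number, a, number. This gave 36 of 12393 genes, and 21 of the 36 passed a filter on low signal (average log2 signal no lower than 4 across the arrays), as did 7381 genes in all. Messenger RNA was measured on 18 Affymetrix arrays, 1 for each embryo fibroblast line. The lines had 3 copies of chromosome 1 (Ts1, 1 line), of chromosome 13 (Ts13, 4 lines), of chromosome 16 (Ts16, 3 lines) or of chromosome 19 (Ts19, 1 line), or had normal chromosomes (control, 9 lines). All lines were grown for 2 passages in DMEM with 10% fetal calf serum and 5 mM glutamine, and RNA was taken with Trizol. The labels give no strain, age of the embryos or breeding scheme for the lines analysed here, and do not say whether each line came from its own embryo. The p-values therefore speak of variation among these cultures, which may be technical.

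Collagens are proteins of 3 chains wound into a triple helix, and each gene encodes 1 kind of chain. Fibrillar collagens (types I, III and V) form the banded fibrils of connective tissue and are main products of fibroblasts. Basement membrane collagens form the sheet under epithelia and around muscle, with type IV as its network. Types II, IX, X and XI belong to cartilage, type VI forms beaded microfibrils, type VIII forms a hexagonal network, and fibril-associated collagens such as types XII and XIV sit on the surface of fibrils. Before secretion the chains are hydroxylated and folded in the endoplasmic reticulum, and after it they are trimmed and cross-linked.

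The promoters of 3 genes that recur in the results are shown: Col1a2 and Col3a1, whose chains belong to the abundant fibrils, and Col8a1, which lies on chromosome 16. Each is the 250 bases before the annotated start in RefSeq (build GRCm38.p6), written 5′ to 3′ on the gene's own strand. Capitals mark an exact match, on either strand, to the TATA box (searched as TATAAA), to the CCAAT box or to the GC box, which was searched as GGGCGG. A match on the opposite strand appears in capitals as its reverse complement, and no printed match overlaps another.
Col1a2 (chr6:4505368-4505617, plus strand): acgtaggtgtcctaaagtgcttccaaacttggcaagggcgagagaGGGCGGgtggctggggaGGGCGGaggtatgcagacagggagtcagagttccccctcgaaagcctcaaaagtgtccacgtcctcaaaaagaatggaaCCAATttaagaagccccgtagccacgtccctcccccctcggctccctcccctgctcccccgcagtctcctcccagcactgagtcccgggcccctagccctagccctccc
Col3a1 (chr1:45311288-45311537, plus strand): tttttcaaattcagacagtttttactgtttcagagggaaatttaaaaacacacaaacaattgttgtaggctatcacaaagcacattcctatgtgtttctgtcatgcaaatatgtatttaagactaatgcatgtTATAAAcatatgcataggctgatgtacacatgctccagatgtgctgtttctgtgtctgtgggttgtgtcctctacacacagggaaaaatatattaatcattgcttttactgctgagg
Col8a1 (chr16:57754738-57754987, minus strand): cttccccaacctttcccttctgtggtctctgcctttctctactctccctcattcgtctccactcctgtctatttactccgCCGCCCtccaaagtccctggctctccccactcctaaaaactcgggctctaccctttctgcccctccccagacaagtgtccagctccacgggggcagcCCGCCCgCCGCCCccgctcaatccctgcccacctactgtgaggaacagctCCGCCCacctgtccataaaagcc
The 3 windows held different matches. Col1a2 held GC boxes at 183 to 188 and 200 to 205 bases before the start and a CCAAT box at 105 to 109 bases. Col3a1 held a TATA box at 112 to 117 bases and neither of the others. Col8a1 held 4 GC boxes on the opposite strand, the nearest 18 to 23 bases before the start. The table held 30 promoters of 27 collagen genes, of which 16 contained a GC box, 12 a CCAAT box and 5 a TATA box. Over all 32851 promoters of the same length the shares were 32.7% for the GC box, 33.8% for the CCAAT box and 12.4% for the TATA box. A match is a description of the letters and not a binding site.

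A strong 3′ bias set 3 arrays apart. On Ts13 replicates 3 and 4 and Ts16 replicate 1 the 3′ control probe set of Gapdh exceeded the 5′ one by 5.57 to 6.94 on the log2 scale, against -0.20 to 1.41 on the other 15 arrays. These are called 3′-biased arrays, and the calls and main differences they touch are also given without them. Fibroblast markers passed the filter in 7 of 7 cases and endothelial markers in 0 of 8. Macrophage markers had a list mean of 2.70 to 5.44 on Ts13 arrays and 2.49 to 4.56 on control arrays, with the highest values on Ts13 replicate 4 and control replicate 8, and 2 of 12 passed the filter. In RNA of whole cultures, fewer cells of a type and less RNA per cell cannot be told apart.

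The genes past the filter covered some classes in full and others in part, counted over the genes on the array. Col2a1, Col11a1 and Col11a2 form fibrils too and were counted under cartilage only. The fibrillar genes Col24a1 and Col27a1 were not among the members. All 6 fibrillar genes passed, as did 3 of 3 microfibril genes (Col6a1, Col6a2, Col6a3) and the 1 short-chain network gene on the array (Col8a1). Of the basement membrane genes 6 of 9 passed, of the fibril-associated genes 3 of 7, of the cartilage genes 2 of 7 and of the transmembrane genes 0 of 3. The type IV chain genes lie in pairs that are adjacent in the annotation used, and only Col4a5 and Col4a6 differed within their pair in passing the filter. Col4a1 and Col4a2 (chromosome 8, annotated spans that overlap by 85 bases) both passed. Col4a3 and Col4a4 (chromosome 1, overlapping by 114 bases) were between 1.87 and 3.18 on every array. Col4a5 (chromosome X) had 10.44 to 12.60 on the 18 arrays, while its neighbour Col4a6, 1274 bases away, was between 2.84 and 3.23 and did not pass.

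The genes differed in how steady they were among normal lines. The median SD over the 9 control arrays was 0.49 for the 21 collagen genes and 0.38 for all genes tested. The steadiest was Col5a2, a type V chain, with an SD of 0.079, and the least steady was Col2a1, the type II chain of cartilage, with 1.64. Signals near the top of the scale can hide a change, since the highest signal of any probe set on an array was 16.2 to 16.6 and Col1a1, Col1a2, Col3a1 and Col5a2 had control medians of 15.29 to 15.62.

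**Figure D1:**
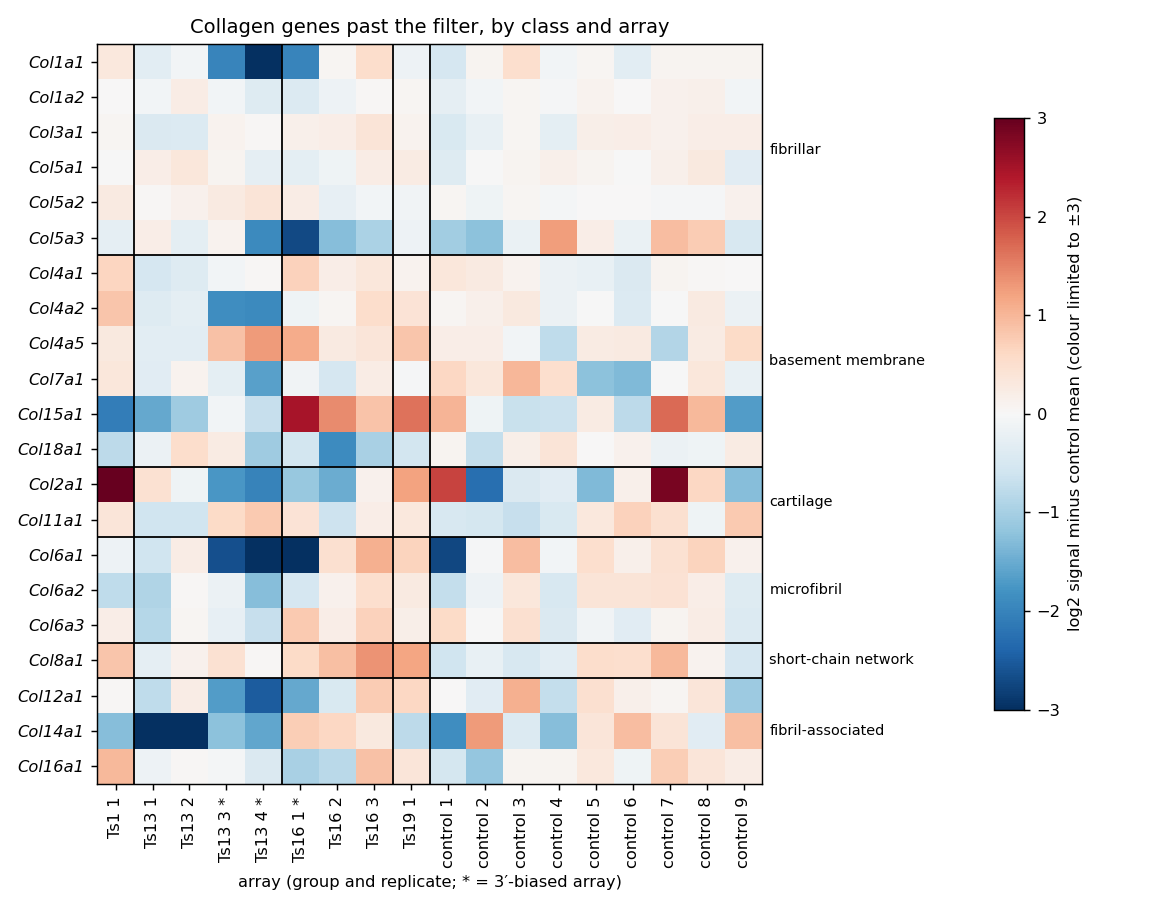
Heatmap of the 21 collagen genes past the filter (rows, by class) on 18 arrays (columns, trisomic arrays on the left and controls on the right, asterisks for 3′-biased arrays). Colour is the log2 signal minus the control mean, limited to ±3. The dark blue cells of Col1a1 and Col6a1 lie on the 3 arrays marked with asterisks, with control replicate 1 for Col6a1, and those of Col14a1 on Ts13 replicates 1 and 2.

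The first question was whether any collagen gene differed between trisomic and normal lines. In Ts13 against control 2 of 21 collagen genes passed (limma, adjusted p under 0.05 over all 7381 genes), both lower, where 1.76% of all genes passed in either direction and 0.664% in the lower one. These were Col14a1 and Col4a2. At an unadjusted p under 0.05 there were 5 of 21 in Ts13, beside 21.9% of all genes. In Ts13, 16 of 21 collagen genes had means below the control mean and the median log2 fold change was -0.44, where 51.2% of all genes tested had means above the control mean and their median was 0.01. Without the 3′-biased arrays that median was -0.20 and 0 collagen genes passed, where 0.190% of all genes did, and 3 of 21 had an unadjusted p under 0.05, beside 9.67% of all genes.

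The other comparisons gave 0 collagen calls with limma. In Ts16 0 of 21 passed, where 0.0406% of all genes did, and 6 of 21 had an unadjusted p under 0.05, beside 6.99% of all genes. Without the biased Ts16 array 2 of 21 had an unadjusted p under 0.05, beside 9.02% of all genes, and the collagen median in Ts16 was 0.27, against -0.03 with it. The single Ts1 array gave 0 of 21 (0.0406% of all genes), with 3 at an unadjusted p under 0.05 (6.29% of all genes), and the single Ts19 array 0 of 21 (0% of all genes), with 1 (1.96%). The fit lends these lone arrays the spread of the replicated groups. The Ts1 array was above all 9 controls for 5 of the 21 genes and below them for 3, where the shares of all genes were 14.5% and 10.3%. The Ts19 array was above all controls for 3 and below them for 0, where the shares were 6.15% and 11.9%. All trisomies together gave 0 of the 17 collagen genes off the extra chromosomes (0.0647% of all such genes), with 2 at an unadjusted p under 0.05 (6.66% of all such genes), Col18a1 and Col14a1. These comparisons share the control arrays.

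Fibrillar genes were near their control means on most arrays. The class mean, relative to controls, was between -1.01 and -0.01 on Ts13 arrays, between -0.83 and 0.03 on Ts16 arrays, 0.06 on the Ts1 array, -0.0022 on the Ts19 array, and between -0.43 and 0.24 on control arrays. The lowest arrays were Ts13 replicate 4 and Ts16 replicate 1, both 3′-biased. Of 6 fibrillar genes 0 passed in any comparison.

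Col1a1 (chromosome 11, 94936224 to 94953042), which encodes the main chain of type I collagen, had log2 signals of 15.09, 15.33, 13.43 and 11.55 on Ts13 replicates 1 to 4 and of 13.44, 15.46 and 15.94 on Ts16 replicates 1 to 3. Control arrays ran from 14.91 to 15.93 with a median of 15.48. The 3 lowest values were those of the 3′-biased arrays, and the others overlapped the controls. The log2 fold change in Ts13 was -1.56 ± 0.55 (SE, n = 4 against 9, adjusted p = 0.13) and -0.20 ± 0.20 without the biased arrays (adjusted p = 0.82). The partner chain gene Col1a2 (chromosome 6, 4505618 to 4541543) was at 15.45, 15.74, 15.45 and 15.13 on Ts13 arrays and at 15.26 to 15.67 on control arrays, with a fold change of -0.08 ± 0.11 (adjusted p = 0.68).

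Col3a1 (chromosome 1, 45311538 to 45349706), the single chain of type III collagen, had 15.06, 15.08, 15.60 and 15.51 on Ts13 arrays, 15.63, 15.69 and 15.86 on Ts16 arrays, and 15.02 to 15.69 with a median of 15.62 on control arrays. Ts13 and control arrays overlapped, and Ts16 replicate 3 and, narrowly, replicate 2 were above every control. The fold changes were -0.17 ± 0.14 in Ts13 (adjusted p = 0.48) and 0.25 ± 0.16 in Ts16 (adjusted p = 0.76). Type V collagen, which sets the width of type I fibrils, had its chains at -0.47 to 0.20 in Ts13, with adjusted p-values of 0.19 for Col5a2, 0.59 for Col5a3 and 0.74 for Col5a1.

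Col5a3, another type V chain, moved most among the fibrillar genes in Ts16. Its log2 signal was 7.77, 9.19 and 9.53 on Ts16 replicates 1 to 3 and 9.23 to 11.71 with a median of 10.27 on control arrays. Ts16 replicate 1 and, narrowly, replicate 2 lay below every control, and replicate 3 did not. The log2 fold change was -1.64 ± 0.55 (n = 3 against 9, adjusted p = 0.44), and -1.11 ± 0.54 without the biased array (adjusted p = 0.57).

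Basement membrane genes gave 1 of the 2 calls in Ts13. Over the 6 genes tested, 5 had means below the control mean in Ts13 (median log2 fold change -0.39) and 2 did in Ts16 (median 0.28). Over all genes tested the medians were 0.01 in Ts13 and -0.05 in Ts16, and 44.2% of genes were above the control mean in Ts16. The class mean was between -0.66 and -0.20 on Ts13 arrays, between -0.07 and 0.58 on Ts16 arrays, -0.12 on the Ts1 array, 0.40 on the Ts19 array and between -0.43 and 0.39 on control arrays.

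Col4a2 (chromosome 8, 11312805 to 11449287), a chain of the type IV network, fell in Ts13. It was at 12.19, 12.29, 10.73 and 10.67 on Ts13 replicates 1 to 4, against 12.18 to 12.87 with a median of 12.58 on control arrays. The 2 biased Ts13 arrays were far below every control and the 2 others were within the control range, so that the groups overlapped only at their edge. The log2 fold change was -1.11 ± 0.27 (limma, adjusted p = 0.047) and the exact permutation test, two-sided, gave p = 0.0084. Without the biased arrays it was -0.34 ± 0.18 (adjusted p = 0.59, exact permutation p = 0.11). Ts16 arrays had 12.47, 12.64 and 13.10, the first of them 3′-biased.

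Its neighbour Col4a1 (chromosome 8, 11198423 to 11312889), whose chain assembles with that of Col4a2, had 14.05, 14.15, 14.45 and 14.59 on Ts13 arrays, against 14.10 to 14.89 with a median of 14.58 on control arrays. Among the Ts13 arrays the 2 without 3′ bias were lowest, the reverse of the order in Col4a2. The fold change in Ts13 was -0.23 ± 0.15 (adjusted p = 0.35), and -0.45 ± 0.17 without the biased arrays (adjusted p = 0.40). The X-linked chain gene Col4a5 had 12.20 and 12.60 on the biased Ts13 arrays and 12.45 on the biased Ts16 array, above the highest control of 11.89, and 11.02 on both other Ts13 arrays. The Ts19 array, without 3′ bias, was also above it, at 12.15, and the Ts1 and other Ts16 arrays, at 11.60 to 11.69, were not. On a second set of Col4a5 the biased arrays had 9.65, 10.49 and 11.24, against 7.50 to 10.19 on control arrays. There Ts13 replicate 3 was inside the control range, and Ts16 replicate 3, without 3′ bias, was above it, at 10.34. The other trisomic arrays without 3′ bias were inside it.

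Some basement membrane genes had other values in Ts16. Col18a1 (chromosome 10, 77052178 to 77166530), whose chain releases endostatin, had 9.19, 7.87 and 8.77 on Ts16 arrays, against 9.03 to 10.14 with a median of 9.83 on control arrays. Replicates 2 and 3 were below every control on this probe set. On a second set the Ts16 arrays had 7.37, 7.14 and 8.82, against 8.01 to 9.89 on control arrays. There replicates 1 and 2 were below every control and replicate 3 was not. On the set used, the log2 fold change was -1.14 ± 0.32 (limma, unadjusted p = 0.0028, adjusted p = 0.28), the lowest p of the collagen genes in Ts16. Without the biased array it was -1.43 ± 0.30 (adjusted p = 0.15). Col15a1, its close relative in structure, had 6.80, 5.74 and 5.18 on Ts16 arrays and 2.64 to 6.01 on control arrays, with a fold change of 1.58 ± 0.60 (adjusted p = 0.56), and 1.14 ± 0.69 without the biased array (adjusted p = 0.66). Against the control of the same replicate number, Ts16 replicates 1 to 3 were higher by 1.47, 1.56 and 1.53 for Col15a1, which gave 1.52 ± 0.26 in the fit blocked on that number (limma, 3 pairs, adjusted p = 0.20). Against controls whose titles open with the same number they were higher by 2.31, 1.56 and 0.68, with replicates 1 and 3 set against the same 2 controls. Col8a1, at 1.36 ± 0.17 (adjusted p = 0.17), and Col3a1, at 0.46 ± 0.08 (adjusted p = 0.20), had lower unadjusted p-values in the blocked fit. Col7a1, the chain of anchoring fibrils, was at -0.54 ± 0.42 in Ts13 and -0.13 ± 0.46 in Ts16 (adjusted p = 0.46 and 0.95). In the fit blocked on the replicate number Col7a1 was at -0.78 ± 0.18 in Ts16 (limma, adjusted p = 0.24).

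The fibril-associated gene Col14a1 had the largest change among the collagen genes tested in Ts13. Col14a1 (chromosome 15, 55307644 to 55520803) encodes type XIV collagen, which binds to fibrils of type I. Its log2 signal was 2.41, 2.33, 4.67 and 4.33 on Ts13 replicates 1 to 4, against 4.05 to 7.19 with a median of 6.27 on control arrays. Ts13 replicates 1 and 2 lay below every control and the 2 biased arrays inside the control range, at its low end. The log2 fold change was -2.47 ± 0.58 (limma, adjusted p = 0.041), and the exact permutation test, two-sided, gave p = 0.014. Signals near 2.3 are at the bottom of the scale, where genes such as Col22a1 lay on all arrays, so the fold change is limited from below. A second probe set of Col14a1 was at the bottom of the scale on every array, at 1.96 to 2.11. The call therefore rests on 1 set.

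The Col14a1 difference was larger without the 3′-biased arrays, at -3.53 ± 0.67, with an adjusted p of 0.051 (exact permutation p = 0.036). The sample titles open with a number that is shared between certain trisomic and control lines and whose meaning no label states. Against the controls with the same such number, Ts13 replicates 1 to 4 differed by -2.21, -4.22, -1.88 and -1.97, all below 0. Replicates 2 and 3 were set against the same 2 controls, so these differences are not all independent. Blocked on that number, Col14a1 was at -2.57 (adjusted p = 0.13) and Col4a2 at -0.96 (adjusted p = 0.31). Permuted within that number, Col14a1 had an exact p of 0.083, the smallest that 24 arrangements allow, and Col4a2 one of 0.17.

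Both calls were close to the threshold and depended on single arrays. Without Ts13 replicate 4 0 collagen genes passed, without replicate 1 only Col4a2, and without replicate 3 only Col14a1. Without Ts13 replicate 2 the 2 were joined by Col1a1 (-2.05, adjusted p = 0.033) and Col12a1 (-1.64, adjusted p = 0.041). Without control replicate 1 or 4 only Col14a1 passed, and without control replicate 2, 3, 5, 6, 7, 8 or 9 or Ts16 replicate 2 neither did.

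Col12a1, whose chain also sits on type I fibrils, had 10.84, 11.83, 9.94 and 9.12 on Ts13 arrays, against 10.52 to 12.66 with a median of 11.67 on control arrays. The 2 biased arrays were below every control and the 2 others were not. The fold change was -1.17 ± 0.48 (adjusted p = 0.18), and -0.27 ± 0.47 without the biased arrays (adjusted p = 0.91). Col16a1 was at -0.15 ± 0.34 (adjusted p = 0.82).

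Ts13 and Ts16 were also set directly against each other, with no control mean in the comparison. No Ts13 line shares the first number of its title with a Ts16 line, so trisomy and title number cannot be told apart here. Of 20 collagen genes off chromosomes 13 and 16, 0 passed (limma; 0.918% of all such genes did) and 8 had an unadjusted p under 0.05, beside 15.9% of all such genes. Col14a1 was at -3.01 ± 0.73 (Ts13 minus Ts16, adjusted p = 0.061), with 2.33 to 4.67 on Ts13 arrays and 6.19 to 6.64 on Ts16 arrays, so the 2 groups did not overlap. The next in order of p were Col6a3 at -0.996 ± 0.27 (adjusted p = 0.088), Col4a2 at -1.27 ± 0.34 (0.090), Col15a1 at -2.43 ± 0.68 (0.093) and Col4a1 at -0.65 ± 0.18 (0.10). All 4 Ts13 arrays were below the Ts16 mean for these 5 genes. Control lines with the title numbers of Ts16 lines had 13.56 to 14.14 for Col6a3, and those with the numbers of Ts13 lines had 13.13 to 13.65. In the same order the ranges were 14.64 to 14.89 and 14.10 to 14.64 for Col4a1, and 12.65 to 12.87 and 12.18 to 12.58 for Col4a2. They were 4.05 to 7.19 and 4.62 to 6.84 for Col14a1, and 3.64 to 5.34 and 3.53 to 6.01 for Col15a1. Without the 3′-biased arrays, which leaves 2 arrays a group, Col14a1 was at -3.98 (adjusted p = 0.092), Col15a1 at -2.44 (0.27) and Col4a1 at -0.72 (0.18). The differences of Col4a2, at -0.63 (0.28), and of Col6a3, at -0.84 (0.36), were smaller than with those arrays. Without Ts13 replicate 2 Col4a2 and Col6a3 passed, and without control replicate 1 Col14a1 did.

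**Figure D2:**
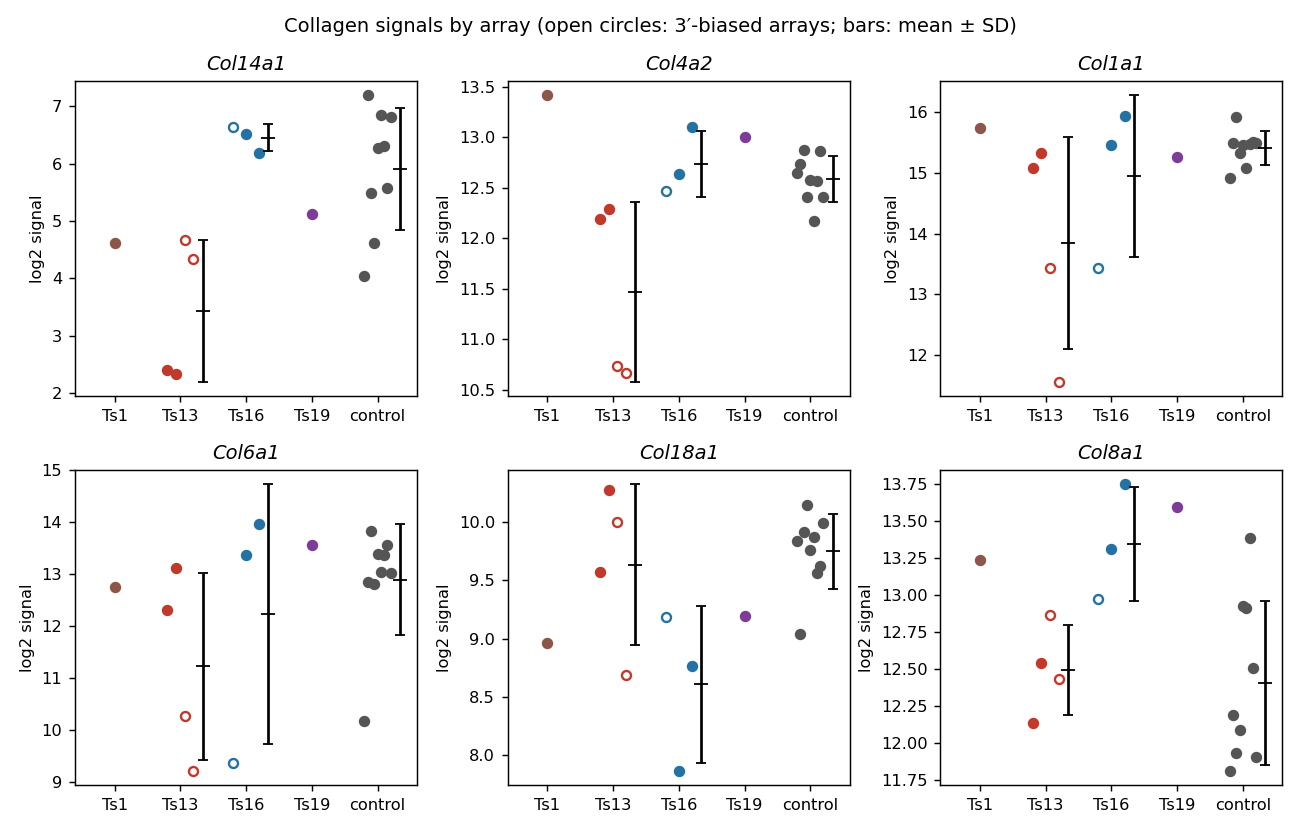
Log2 signal of 6 collagen genes on each array, by group, with open circles for 3′-biased arrays and bars for mean ± SD in groups of over 1 array. Col14a1 is lowest on Ts13 replicates 1 and 2, near 2.4, while Col4a2, Col1a1 and Col6a1 are lowest on 3′-biased arrays. For Col8a1 all 3 Ts16 arrays lie above the median of the controls.

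Type VI collagen forms microfibrils around cells, and its chain gene Col6a1 was lowest on the 3′-biased arrays and 1 control. Col6a1 (chromosome 10, 76708792 to 76726044) was at 12.30, 13.12, 10.25 and 9.21 on Ts13 arrays and at 9.36, 13.36 and 13.96 on Ts16 arrays, against 10.16 to 13.82 with a median of 13.03 on control arrays. The 4 lowest of 18 values were the 3 biased arrays and control replicate 1, whose Gapdh difference was 0.36. The fold change in Ts13 was -1.67 ± 0.84 (adjusted p = 0.25), and -0.18 ± 0.67 without the biased arrays (adjusted p = 0.97). Col6a2, 85161 bases away on chromosome 10, and Col6a3 on chromosome 1 were at -0.58 ± 0.28 and -0.44 ± 0.21 in Ts13 (adjusted p = 0.23 and 0.24). In Ts16 they were at 0.05 ± 0.31 and 0.56 ± 0.23 (adjusted p = 0.97 and 0.64).

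Different probe sets of the same gene disagreed on the 3′-biased arrays. The 36 genes had 58 probe sets, and 11 genes had several past the filter. Over the 3 biased arrays 4 of the 11 had sets more than 1 log2 unit apart, measured as the difference from the control mean of each set, and over the 6 other trisomic arrays 0 did. For Col1a1 the set used was 2.60 below its control mean on the biased arrays and its other set 2.81 above it, and both were 0.06 above on the other trisomic arrays. For Col5a1 the set used was at -0.16, a second at -1.98 and another at -9.12, the last of these lying at 2.39 to 2.44 on the biased arrays and at 9.10 to 12.30 on control arrays. Col8a1 had sets at 0.35 and -2.27. Values of a collagen gene on these arrays therefore depended on which probe set was read.

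**Figure D3:**
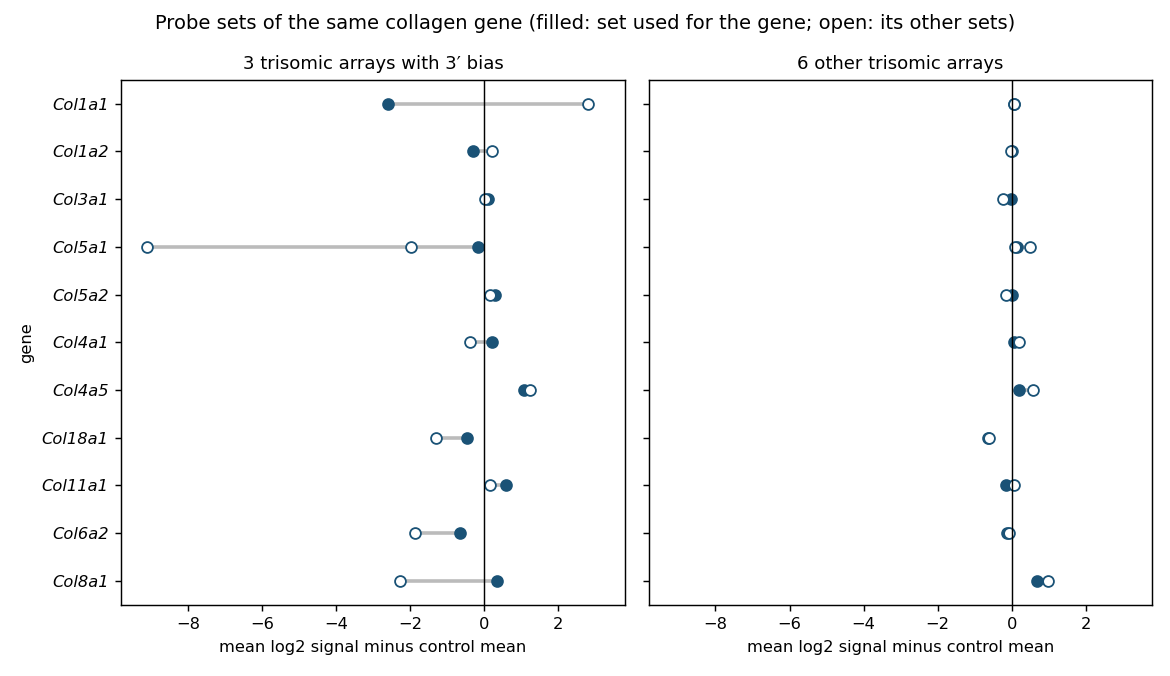
Mean log2 signal minus the control mean for each probe set of the 11 collagen genes with several sets past the filter, over the 3 trisomic arrays with 3′ bias (left) and the 6 other trisomic arrays (right). Filled circles are the sets used. On the left the sets of Col1a1 lie at -2.60 and 2.81 and those of Col5a1 reach -9.12, and on the right the sets of each gene lie less than 1 apart.

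Cartilage collagens were mostly below the filter, and the single Ts1 array had the highest value of all 18 for 3 of the 7 genes, Col2a1, Col9a1 and Col10a1. Col2a1 (chromosome 15, 97975602 to 98004724) was at 10.82 on the Ts1 array, against 5.01 to 10.11 with a median of 6.93 on control arrays. Its log2 fold change was 3.55 ± 1.39 (n = 1 against 9, adjusted p = 0.67). It was at 7.73, 7.15, 5.53 and 5.27 on Ts13 arrays and at 6.13, 5.78 and 7.40 on Ts16 arrays, inside the wide control range. Col11a1, a chain of type XI collagen also made outside cartilage, varied less, with 12.25 on the Ts1 array and 11.19 to 12.68 on control arrays.

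Col9a1 and Col10a1, with Col19a1, were below the filter but had a signal of at least 4 on the Ts1 array, above every control. Col11a2 was also above every control there, but at 1.87 on Ts1 against up to 1.87 on control arrays, at the bottom of the scale. Col10a1 (chromosome 10, 34389981 to 34397085), a gene of hypertrophic cartilage, was at 5.18 on Ts1, against 1.94 to 2.89 on control arrays. Col9a1 (chromosome 1, 24177589 to 24252738), a type IX chain of cartilage, was at 4.34 on Ts1, against 2.38 to 3.14 on control arrays. Its neighbour Col19a1 (chromosome 1, 24257683 to 24587922), a fibril-associated collagen, was at 4.90 on Ts1, against 2.20 to 2.25 on control arrays, and the annotated spans of the pair lie 4944 bases apart. For these 3 genes the Ts1 array was the only one of 18 with a signal of at least 4. In a fit with no filter they were the 3 collagen genes that passed in Ts1 (12393 genes, of which 0.363% passed). All 3 were named after their values were seen, and none has a second Ts1 array as a check. Their control SDs, at low signal, were 0.40 (Col10a1), 0.25 (Col9a1) and 0.019 (Col19a1). The lone Ts1 array adds nothing to the spread used in the fit. Nor did a second probe set show the rise where there was one. For Col9a1 the second set was at 2.29 on Ts1, against 2.26 to 2.30 on control arrays. For Col19a1 it was at 2.24 on Ts1, against 2.18 to 2.27 on control arrays, and Col10a1 had only 1 set.

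Other genes of cartilage and bone were not high on the Ts1 array. The list mean was 2.98 on Ts1 and 2.90 to 3.33 on control arrays, and 1 of 8 genes on the array passed the filter, Sox9, a regulator of cartilage, at 6.84 on Ts1 and 6.18 to 7.59 on control arrays. Acan, the main proteoglycan of cartilage, was at 2.50 on Ts1 and 1.95 to 5.52 on control arrays, and Comp, a matrix protein of cartilage, at 2.25 on Ts1 and 2.23 to 3.94 on control arrays. The smooth muscle list (6 of 6 past the filter) had a mean of 12.28 on Ts1 and 10.74 to 12.36 on control arrays. One of its genes, Des, was above every control, at 8.18 on Ts1 and 4.87 to 7.51 on control arrays. The epithelial list (2 of 6 past the filter) had a mean of 3.91 on Ts1 and 2.77 to 3.74 on control arrays. That mean was 4.05 on Ts19, 3.32 to 4.09 on Ts16 arrays and 3.22 to 3.48 on Ts13 arrays. Its gene Krt18 was at 8.08 on Ts1 and 3.88 to 7.27 on control arrays. Krt18 was also above every control on Ts19, at 8.37, and on the biased Ts16 replicate 1, at 7.33. The other Ts16 arrays, at 5.36 and 6.03, and the Ts13 arrays, at 4.55 to 4.93, were not. Epcam and Cdh1, which define epithelia, were at 1.97 and 2.57 on Ts1 and up to 1.98 and 2.60 on control arrays. The part of these markers in the collagen values was not tested.

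**Figure D4:**
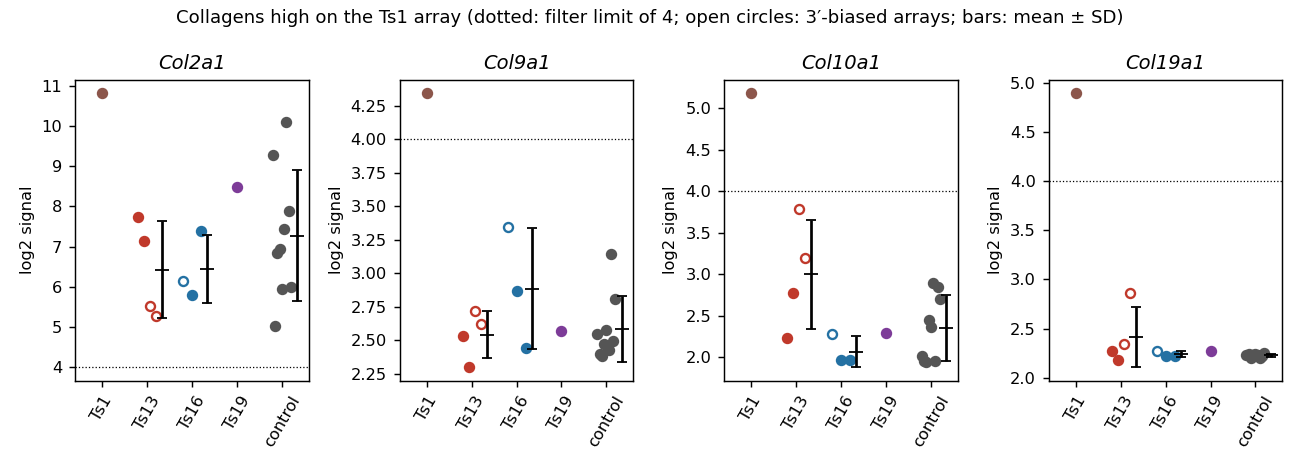
Log2 signal of Col2a1, Col9a1, Col10a1 and Col19a1 on each array by group, with bars for mean ± SD in groups of over 1 array, open circles for 3′-biased arrays and a dotted line at the filter limit of 4. The Ts1 array is the highest of all 18 in each panel, at 10.82, 4.34, 5.18 and 4.90.

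Copy number was read from collagen genes on the extra chromosomes. On chromosome 1, 3 of 7 collagen genes passed the filter. The only one on chromosome 16, Col8a1, passed, the only one on chromosome 19, Col17a1, did not, and chromosome 13 holds 0 of the 36. In Ts1 the 3 chromosome 1 genes were at 0.06 ± 0.25 (Col3a1), 0.21 ± 0.37 (Col6a3) and 0.26 ± 0.15 (Col5a2), where the median of 414 tested genes of the chromosome was 0.70. They lay at its 12th, 18th and 21st percentiles. The 29 chromosome 1 genes with a mean signal of at least 13, a range that holds all 3 collagens, had a median of 0.34.

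Col8a1 (chromosome 16, 57624256 to 57754737), a chain of the short-chain network, whose promoter is printed above, stood at 12.97, 13.31 and 13.75 on Ts16 arrays, against 11.81 to 13.38 with a median of 12.19 on control arrays. The first of these Ts16 arrays was 3′-biased. One Ts16 array was above every control and the groups overlapped through control replicate 7. The log2 fold change was 0.94 ± 0.30 (adjusted p = 0.38), at the 74th percentile of 243 chromosome 16 genes with a median of 0.61. Without the biased Ts16 array the fold change of Col8a1 was 1.12. Against controls that share their title number the 3 Ts16 arrays differed by 1.10, 1.12 and 1.87. Replicates 1 and 3 were set against the same 2 controls and replicate 2 against 1, so these differences are not all independent. Col8a1 was also at 13.23 on the Ts1 array and 13.59 on the Ts19 array, which have no extra chromosome 16 by their labels, and at 12.13 to 12.86 on Ts13 arrays. On a second probe set the Ts16 arrays had 7.26, 11.25 and 10.66, against 7.77 to 9.94 on control arrays. There the biased Ts16 replicate 1 was below every control and replicates 2 and 3 were above every control. The Ts1 and Ts19 arrays, at 9.43 and 9.54 on that set, were inside the control range.

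**Figure D5:**
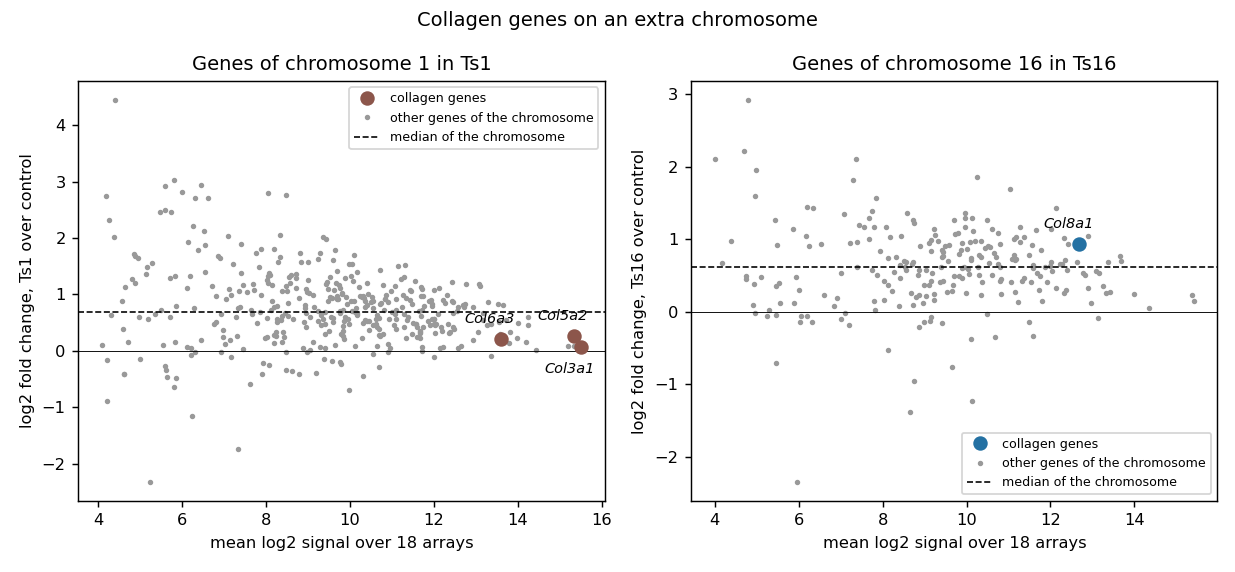
Log2 fold change against mean log2 signal for genes of chromosome 1 in Ts1 (left) and of chromosome 16 in Ts16 (right), with collagen genes as large points and the chromosome median dashed. The 3 collagens of chromosome 1 lie at 0.06 to 0.26, below the median of 0.70 and at the right end of the signal axis, and Col8a1 lies at 0.94, above the median of 0.61.

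The partners that fold, process and bind collagen were described from lists. Of 16 genes of folding and modification in the endoplasmic reticulum, 0 passed in Ts13 (limma, beside 1.76% of all genes) and 12 had means below the control mean, with a median log2 fold change of -0.64, and of -0.03 without the biased arrays. P4hb, a subunit of prolyl hydroxylase, was at -1.11 (adjusted p = 0.14) and at 0.01 without those arrays, and P4ha2, a catalytic subunit, at -0.93 (0.12) and -0.05. P3h1, another proline hydroxylase and a gene named after its values were seen, was at 10.20, 10.51, 4.72 and 3.67 on Ts13 arrays, against 8.85 to 10.81 on control arrays. In Ts16 0 of the 16 passed, beside 0.0406% of all genes, and the median was -0.14.

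Among 8 genes of procollagen processing and cross-linking, 1 rose in Ts13, where 1.76% of all genes passed. Lox, the enzyme that starts collagen cross-links, was at 14.93, 15.11, 14.97 and 15.19 on Ts13 arrays, against 14.50 to 14.90 with a median of 14.73 on control arrays, so the groups did not overlap. Its log2 fold change was 0.34 ± 0.08 (limma, adjusted p = 0.045), and 0.30 without the biased arrays (adjusted p = 0.36). In Ts16 0 of these 8 passed, and Lox was at 0.15 (adjusted p = 0.76). The Ts1 array, at 14.93, the Ts19 array, at 14.96, and Ts16 replicate 2, at 14.97, were also above every control for Lox. Ts16 replicates 1 and 3, at 14.83 and 14.80, were not.

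Genes that bind collagen gave 0 calls with limma in Ts13, where 1.76% of all genes passed, or in Ts16, where 0.0406% did. Of 12 fibril-binding proteoglycans and glycoproteins, 7 were below the control mean in Ts13, with Thbs2, a matricellular protein, at -1.06 ± 0.28 (adjusted p = 0.068; -1.05 without the biased arrays). Prelp, a proteoglycan that anchors basement membranes, was at 10.17, 10.20 and 10.33 on Ts16 arrays, against 3.78 to 9.00 on control arrays, with a fold change of 3.27 ± 1.01 (adjusted p = 0.35). Every Ts16 array was above every control for Prelp, yet the control range was wide. The Ts19 array, at 10.91, and the biased Ts13 replicate 3, at 10.48, were also above every control. The Ts1 array, at 6.55, and the other Ts13 arrays, at 4.96 to 8.05, were not. Of 4 collagen receptors and 5 collagenases tested, 0 passed in either trisomy, and the receptor Ddr2 was at -1.41 ± 0.41 in Ts13 (adjusted p = 0.084) and at -0.39 without the biased arrays.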

How the data were processed

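The deposited values are log2 signals of 22690 probe sets on 18 arrays, 1 per line, made by the authors with GCRMA and the affy package, per the submitters' processing notes; with versions not given in the sources used here. Probe sets with exactly 1 gene in the platform's gene table were used (20380; 691 listed several genes, 1555 none, and 64 were controls), with the set of the highest mean over 18 arrays for each gene. Arrays give no counting depth, and their number limits the precision.

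Genes with a mean of at least 4 were fitted with limma 3.58.1 in R 4.3.3 (eBayes with trend, 18 arrays in 5 groups, 13 residual degrees of freedom), with Benjamini-Hochberg adjustment over 7381 genes, two-sided, at 0.05. Coordinates and promoters are from RefSeq, GRCm38.p6; 27 of 36 genes had a promoter. Col14a1 and Col4a2, the 2 genes past the threshold, also had an exact permutation test. An array was called 3′-biased above a Gapdh 3′ minus 5′ difference of 3.

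Members, classes, gene lists and the bias limit were chosen with earlier results of these data known. Named were all collagens past the threshold, the main fibrillar and type IV genes, those on extra chromosomes, up to 20 collagens a comparison by p, and partner genes past the threshold with up to 3 more a list. Same-numbered Ts16 and control replicates deviated together (correlations of 0.52, 0.41 and 0.58), so a blocked fit was made; Ts13 and control replicate numbers did not pair (-0.24, -0.03, -0.26 and -0.25). Ts13 and control lines that share the first number of their titles had correlations of -0.10 to 0.36, so neither number paired these lines by this check. The procedure was tested on simulated data. Alternatives were other filters, probe set rules, scalings, blocks, a bias covariate, a fit without trend, fewer groups, and leaving out each array or the biased arrays.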

Additional observations from a re-analysis of the deposited data

Results flagged for a closer look

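Among 48 groups of 4 to 10 arrays examined for 1 array far from the others, 1 was flagged, where chance alone flags about 1 in 20 groups. Col6a1 on control replicate 1 had a log2 signal of 10.16, and the nearest other control array had 12.81. The gap was 0.724 of the whole range of the 9 controls. The 3′-biased arrays had like values, but control replicate 1 had a Gapdh difference of 0.36. The cause was not tested.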

How the results depend on the processing

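The count of collagen genes past the threshold in Ts13 against control, 2 as reported, stayed at 2 with median centring and quantile normalization. It was 1 with a mean of at least 6 (Col4a2), with no trend, with the Gapdh difference as a covariate and with the compared groups only (Col14a1 in these 3). It was 0 with no filter, with the mean over probe sets, with the probe set of the largest variance, with the replicate number or the first number as a block, without the 3′-biased arrays, and with the first number as a block without them, an alternative chosen after seeing the data. Leaving out 1 array at a time gave 0 to 4. The mean over probe sets left out Col14a1, whose mean over its sets fell under the filter, and in the other cases the cause was not tested.

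The Ts1 count of 0 became 3 with no filter. The Ts13 against Ts16 count of 0 became 1 with quantile normalization, 4 with the Gapdh covariate and 0 to 2 with 1 array left out. Counts for Ts16, Ts19 and all trisomies were 0 under every alternative run. In the exact permutation test Col14a1 was at -2.41 within the first number (replicate block, p = 0.083), and Col4a2 at -0.34 without biased arrays (p = 0.11) and -0.996 within the first number (p = 0.17). The pairing by replicate number changed no call in Ts16. Over 640 alternatives of 21 single-gene results, 591 kept direction and side of the threshold, 38 lost the call, 10 gained it and 1 changed sign (Col1a1 in Ts13, not called, at 1.15 with the probe set of the largest variance). The 6 class means kept within 1 SD. Signals near the top or bottom of the scale limit what can be seen of the abundant fibrillar and the low cartilage genes.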
